A study of Mus musculus with 2 samples.

Results

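TREM2-type lipid handling was followed through 9 genes, Trem2, Apoe, Abca1, Abcg1, Lpl, Fabp5, Cd36, Gpnmb and Spp1, which were taken by name from the 35208 gene rows of the cDNA matrix. The study had singled out Apoe, Abca1, Abcg1 and Trem2 on these same cells, so their pattern among the macrophages here is not independent of that choice. The cells came from inflamed ear skin of BALB/c mice with IgE-dependent chronic allergic inflammation (IgE-CAI), induced by intravenous IgE against the hapten TNP and intradermal TNP-OVA. Wild-type (WT) and Ccr2-/- mice were sampled on days 3 and 5 after the antigen, and all 4 groups received the same IgE and antigen. Ccr2-/- mice lack the chemokine receptor with which classical monocytes leave the bone marrow, and the deletion is not limited to a cell type. Each of the 4 groups was 1 hashtag pool, and the number of mice in a pool was not given in the sources used here. Each comparison between genotypes or days therefore rests on 1 pool per group. P-values measure the spread between pools or between sums of cells from them, estimated with the help of all genes. Where a fit leaves 1 residual degree of freedom, they rest mostly on that shared estimate.

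Macrophages that clear dead cells take up their membranes and lipids, and these 9 genes cover the way from the outside to storage and export. TREM2 is a receptor for lipids and lipoproteins that signals through TYROBP, and CD36 is a scavenger receptor and fatty acid transporter. APOE carries cholesterol and is a ligand of TREM2. ABCA1 and ABCG1 pump cholesterol out of the cell under control of the sterol sensor LXR. LPL releases fatty acids from lipoproteins, and FABP5 carries fatty acids within the cell. GPNMB is a transmembrane glycoprotein of lysosome-rich macrophages, and SPP1 (osteopontin) is a secreted matrix protein. Several of these genes also have well-known roles outside macrophages, CD36 in capillary endothelium and LPL in adipose tissue among them.

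In the GRCm38 build of the mouse genome, Trem2 lies at chr17:48346401-48354147 and Abcg1 at chr17:31057675-31117988, both on the plus strand. Apoe lies at chr7:19696109-19699188 and Abca1 at chr4:53030787-53159895, both on the minus strand. The other members are Lpl at chr8:68880491-68907448 on the plus strand, Fabp5 at chr3:10012548-10016607 on the plus strand, Cd36 at chr5:17781690-17888801 on the minus strand, Gpnmb at chr6:49036546-49070929 on the plus strand and Spp1 at chr5:104435118-104441050 on the plus strand. These are GENCODE spans of whole genes, exons and introns included.

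The promoters of Abca1, Apoe and Trem2 are shown because these members stood higher in C1qa-gated than in Pdcd1lg2-gated macrophages in all 4 pools and were highest over all macrophages in WT day 5, as described with the gates. Each sequence is the 250 bases before a transcript start in the RefSeq promoter table (GRCm38.p6), at chr4:53159896-53160145 on the minus strand for Abca1, chr7:19699189-19699438 on the minus strand for Apoe and chr17:48346151-48346400 on the plus strand for Trem2. Capitals mark matches on either strand to the Sp1-type motif GGGCGG, the E-box motif CACGTG, the promoter motif TATAAA, the motif GAGGAA, which is the core bound by the myeloid factor PU.1, and the AP-1 motif TGANTCA, and no marked matches overlap.
Abca1: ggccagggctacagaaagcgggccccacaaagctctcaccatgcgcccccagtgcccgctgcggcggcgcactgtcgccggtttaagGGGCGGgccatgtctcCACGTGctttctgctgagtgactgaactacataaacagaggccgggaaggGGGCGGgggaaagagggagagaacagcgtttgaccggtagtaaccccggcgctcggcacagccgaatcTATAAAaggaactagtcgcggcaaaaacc
Apoe: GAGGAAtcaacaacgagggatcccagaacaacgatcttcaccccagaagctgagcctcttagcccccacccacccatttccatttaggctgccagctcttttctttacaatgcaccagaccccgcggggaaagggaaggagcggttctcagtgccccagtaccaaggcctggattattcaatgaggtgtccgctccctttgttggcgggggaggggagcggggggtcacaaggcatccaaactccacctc
Trem2: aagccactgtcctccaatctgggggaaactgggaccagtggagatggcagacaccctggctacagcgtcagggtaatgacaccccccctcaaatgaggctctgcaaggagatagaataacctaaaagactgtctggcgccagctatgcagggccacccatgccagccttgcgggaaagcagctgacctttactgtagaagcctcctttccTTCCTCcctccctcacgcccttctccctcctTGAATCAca

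Of the 9 members, 6 had entries in that table, with 9 windows in all that also held the 50 bases after the start, and Abcg1, Lpl and Fabp5 had none. GAGGAA was found in 4 of the 9 windows and in 28.28% of 32851 promoters. TGANTCA was found in 2 windows, those of Trem2 and Gpnmb, and in 7.808% of promoters. CACGTG was found in the Abca1 window alone and in 7.15% of promoters. TATAAA was found in 3 windows and in 13.62% of promoters, and GGGCGG in 2 windows and in 35.66% of promoters. The strict form of the repeat bound by LXR (DR4) was in 0 of the 9 windows and in 0.01522% of promoters. DR4 is a pair of AGGTCA motifs with 4 bases between them. With up to 2 mismatches it was in 0 windows and in 3.023% of promoters. Looser forms were not searched for. The Abca1 sequence above holds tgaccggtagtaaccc, which differs from DR4 on the other strand at more than 2 letters and was not counted. The counts of 0 therefore do not mean that an LXR site is absent. The related repeat DR1, bound by PPARs and with 1 base between the pair, was in 0 windows and in 0.03957% of promoters. A match describes the letters only.

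Values for the 4 pools are given in 1 order throughout, with WT on days 3 and 5 first and Ccr2-/- on days 3 and 5 after it. After filtering, 7118 cells remained, with 1543, 1037, 2191 and 2347 in the 4 pools, and the median depth of a pool was between 18632 and 48232 reads per cell. The cells were clustered without the 9 members. Of them, 1106 were monocyte-macrophage-like (Mo-Mac-like), in cluster 2 (702 cells, led by C1qa and Folr2) and cluster 6 (404 cells, led by Chil3 and Arg1). The targeted gene, Ccr2, was measured in Mo-Mac-like cells at 803 and 613 counts per 1000000 reads (CPM) in WT on days 3 and 5 and at 62.7 and 28.9 CPM in Ccr2-/-, a log2 difference of -3.99 ± 0.25 (SE, n = 2 pools per genotype, edgeR quasi-likelihood adjusted p = 0.0208). Levels are given as CPM of the reads summed over all cells of a group, and shares of cells are shares with at least 1 read after each cell was thinned to 10000 reads. Thinning left out 1560 shallower cells, 43, 30, 16 and 10 of them Mo-Mac-like cells in the 4 pools. Values were reads and not molecules, so intervals cover counting error only. T cell-like cells, which should lack most members, gave the background, at a median depth of 13390 to 16680 reads per cell against 46551 to 60520 in Mo-Mac-like cells.

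The members differed in the cell type that held the largest share of their reads. Mo-Mac-like cells held the largest share for 5 members, with 89.3% of all Trem2 reads, 57.1% of Abcg1, 51.1% of Fabp5, 49.1% of Apoe and 41.2% of Abca1 reads. Fibroblast-like cells, which held 57.7% of the reads of all genes, carried 82.5% of Gpnmb, 80.7% of Lpl and 66.7% of Spp1 reads. The Spp1 share rested on 1 fibroblast-like cell with 19090 reads, and without it was 45.2%, below the share of all reads in these cells. Blood endothelial-like cells held 48.0% of Cd36 reads, ahead of the 36.0% in Mo-Mac-like cells.

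**Figure D1:**
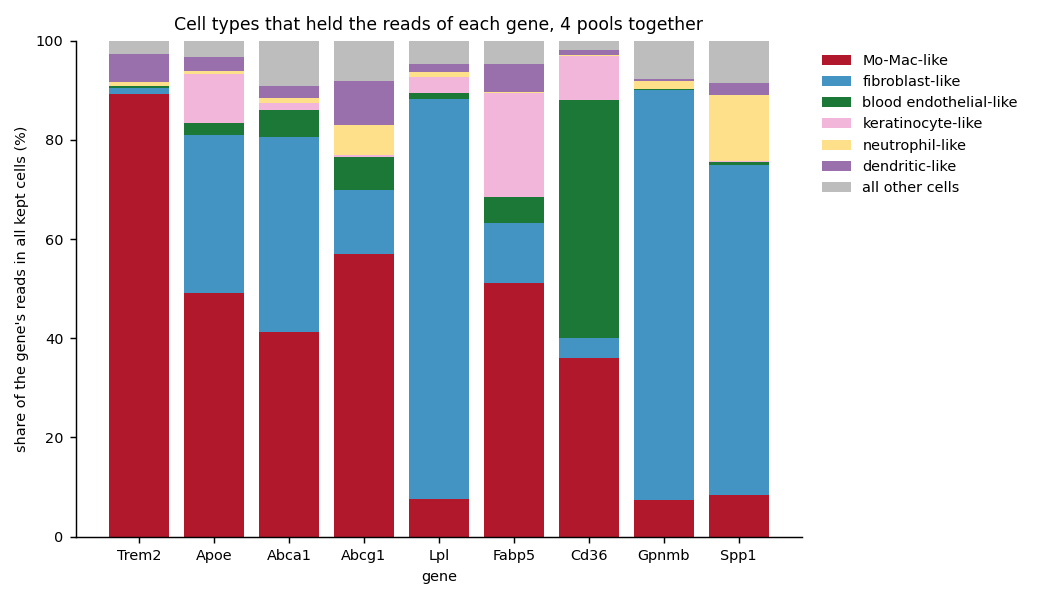
Stacked bars give the share (%) of each gene's reads, the 4 pools together, that lay in each cell type. Trem2 is nearly all Mo-Mac-like (89.3%), whereas Gpnmb and Lpl are mostly fibroblast-like (82.5% and 80.7%) and Cd36 is divided between blood endothelial-like and Mo-Mac-like cells.

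Trem2 was the member most limited to Mo-Mac-like cells. Its level there was 105.9, 289.9, 130.2 and 173.7 CPM in the 4 pools. The share of Mo-Mac-like cells with a read was 31.3, 60.4, 37.8 and 41.0% in the same order, or 37.9, 68.1, 45.9 and 50.5% before thinning. WT day 5 was the highest pool on both measures. In T cell-like cells 0 to 1 cell of each pool had a read (1 of 52, 0 of 18, 1 of 70 and 1 of 60), and fibroblast-like cells were at 0.453 to 1.43 CPM. Dendritic-like cells came next after Mo-Mac-like cells among the 6 types plotted, at 32.8, 56.6, 16.1 and 30.8 CPM, except in WT day 5, where the 7 neutrophil-like cells were at 104.9 CPM. Across 57 sums of cells by type and pool, the genes whose log levels ran most like that of Trem2 were the myeloid genes Aif1 (Pearson's r = 0.759), Rnase2a (0.758) and Fcgr1 (0.756), out of 17879 ranked. These sums share pools and depth, and the values describe the sums only.

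Cd36 was an endothelial gene in this skin as much as a macrophage gene. In blood endothelial-like cells its level was 1127, 1703, 780 and 1139 CPM in the 4 pools, and 70.3 to 92.3% of these cells had a read. In Mo-Mac-like cells it was 130.4, 157.6, 199.3 and 251.6 CPM, below the endothelial level of every pool. A single cell held 59.3% of the Cd36 reads of Mo-Mac-like cells in Ccr2-/- day 5, and only 21.7% of the cells there had a read. Keratinocyte-like cells, 73 in all, were at 247.0, 118.0, 469.1 and 266.7 CPM, above Mo-Mac-like cells in every pool but WT day 5. Fibroblast-like cells had 1.36 to 7.24 CPM.

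Among the secreted members, Apoe was the most widely read. In Mo-Mac-like cells its level was 2260 and 7852 CPM in WT on days 3 and 5 and 1202 and 2181 CPM in Ccr2-/-, and 73.5 to 99.3% of cells had a read. WT day 5 stood far above the other 3 pools, and the day 5 pool was the higher in both genotypes. Keratinocyte-like cells, 73 in all, were at 5532, 6139, 6302 and 6299 CPM, nearly the same in each pool. The high value of WT day 5 was not confined to macrophages, since blood endothelial-like cells had 4041 CPM there against 581 to 824 in the other pools. T cell-like cells had 1038 CPM in WT day 5 against 42.7 to 109.6, and 28.6 to 44.4% of them had a read. The shares of Apoe-read cells in dendritic-like cells, 33.3 to 49.5%, lay close to that background. The part of free RNA in these levels was not tested.

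Lpl, the lipoprotein lipase, had most of its reads in fibroblast-like cells, but these did not have the highest level in every pool. Fibroblast-like cells had 502.3, 804.0, 348.7 and 522.1 CPM in the 4 pools, with a read in 60.9 to 77.2% of cells. Mo-Mac-like cells had 124.5, 206.0, 213.8 and 196.1 CPM and 1 cell held up to 47.7% of a pool's reads. Keratinocyte-like cells, few in number, were at 366.6, 326.2, 895.4 and 527.4 CPM, above the fibroblast level in both Ccr2-/- pools. T cell-like cells were at 618.5 CPM in WT day 3, with 86.4% of the reads in 1 cell, and at 14.1 to 60.3 CPM in the other pools. In cluster 1, the fibroblast-like cells led by Scara5, Lpl stood at 729, 1096, 869 and 686 CPM, above the cycling cells of cluster 4 in every pool (301, 189, 242 and 357).

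Spp1 reads came from few cells of any type. In fibroblast-like cells its level was 33.5, 65.7, 32.5 and 271.7 CPM, and in Ccr2-/- day 5 a single cell held 73.8% of the reads, without which the level was 71.4 CPM. Neutrophil-like cells, numerous in Ccr2-/- skin, had 247.1, 279.2 and 473.3 CPM in the pools other than WT day 5, with a read in 11.1, 17.3 and 22.9% of cells. The WT day 3 share was 2 of 18 cells, and 1 of the 52 neutrophil-like cells there held 63.7% of the Spp1 reads. The WT day 5 pool had only 7 neutrophil-like cells, and 1 of them held 96.3% of the Spp1 reads. Perichondrial-like cells were at 210.6, 81.4, 44.8 and 56.7 CPM in the 4 pools. A read was found in 22.8, 18.75, 10.8 and 10.7% of them. In Mo-Mac-like cells 8.0 to 9.9% of cells had a Spp1 read, against 0 to 2.86% of T cell-like cells. The few T cell-like cells allowed shares of up to 10.3, 18.5, 9.94 and 5.96% in the 4 pools (exact upper limits). The Mo-Mac-like share exceeded that limit in Ccr2-/- day 5 only, so in the other pools a share above the background was not detectable.

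The sterol exporters Abca1 and Abcg1 shared the pool order of Trem2 in Mo-Mac-like cells. Abca1 was at 127.0, 457.1, 139.9 and 294.5 CPM in the 4 pools, and was read in 24.8, 73.4, 38.7 and 55.4% of cells. Abcg1 was at 73.1, 196.2, 92.6 and 146.9 CPM and was read in 18.9, 49.8, 24.4 and 42.2% of cells. For both genes the day 5 pool of each genotype was the higher, as for Trem2 and Apoe. Abca1 was also read in fibroblast-like cells at 65.3, 122.9, 52.9 and 61.2 CPM, whereas Abcg1 was at 3.81, 14.2, 4.95 and 9.504 CPM there. T cell-like cells of WT day 5 had 196.5 CPM of Abca1 in 5 of 18 cells, above the 2.25 to 75.6 CPM of the other pools.

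Fabp5, the intracellular fatty acid carrier, was at 1640, 900, 1373 and 1787 CPM in Mo-Mac-like cells of the 4 pools. It was thus lowest in the pool where Trem2, Apoe, Abca1 and Abcg1 were highest. Keratinocyte-like cells had 4164, 3897 and 4210 CPM in 3 pools and 961 CPM in WT day 5, where there were 5 of them. Fabp5 shares 260 of its 3592 words of 31 bases (7.238%) with the annotated gene Gm6166, which had 8.63% as many reads, and reads that match both cannot be told apart. The sum of Fabp5 is therefore uncertain by the reads placed on Gm6166. Gm6166 followed Fabp5 over the 57 sums with r = 0.949. Abcg1 and Lpl shared shorter stretches with other genes. Abcg1 shared 24 of 7316 words (0.328%) with Hhat, which had 24.05% as many reads. Lpl shared 58 of 10291 words (0.5636%) with Maip1, which had 8.035% as many reads, and 33 words with AC160336.1, which had 601.3% as many.

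Gpnmb had most of its reads outside the Mo-Mac-like cells. Fibroblast-like cells had 106.1, 137.9, 46.4 and 45.6 CPM in the 4 pools, and 33.5, 42.1, 23.7 and 20.9% of them had a read. In Mo-Mac-like cells it was at 25.9, 34.8, 2.34 and 0.419 CPM. The unnamed cluster 5, whose cells were shallow and led by small RNA genes and Meg3, was at 95.1, 185.7, 52.9 and 78.9 CPM, above the fibroblast level in every pool but WT day 3. The genes whose levels ran most like it over the 57 sums were Lrrc17, Angptl1 and Ogn (r = 0.792, 0.777 and 0.774). Ogn encodes a matrix proteoglycan, osteoglycin.

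**Figure D2:**
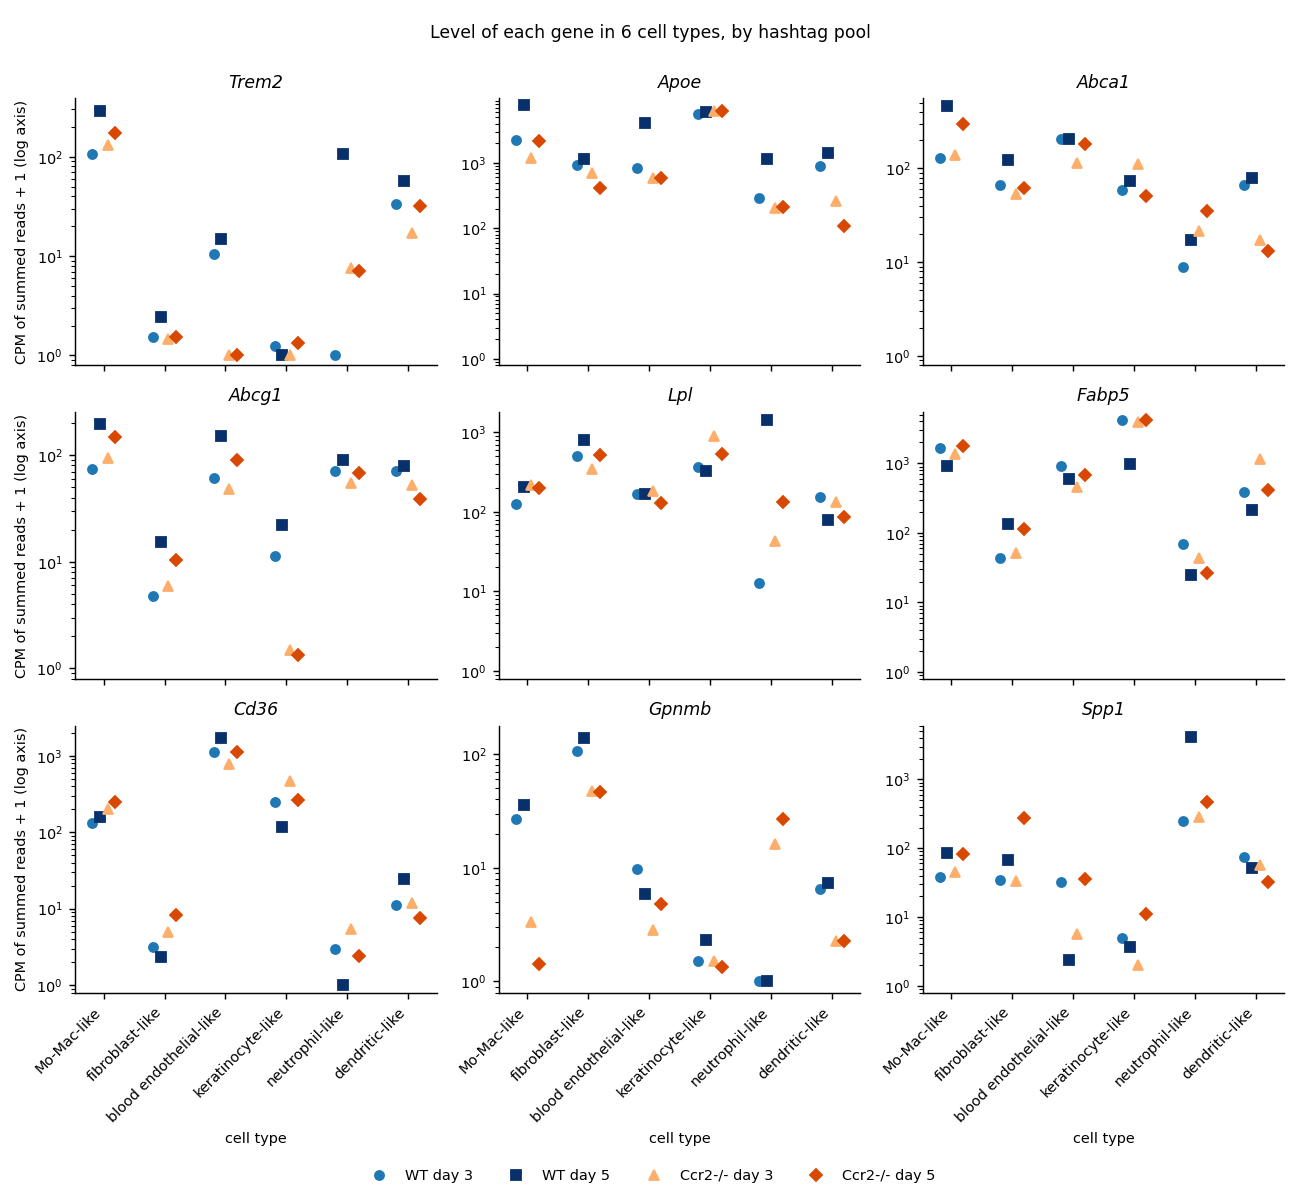
Each panel gives the CPM of summed reads plus 1 (log axis) of a gene in 6 cell types, with 1 point per hashtag pool. Trem2 is highest in Mo-Mac-like cells in all 4 pools, Cd36 in blood endothelial-like cells and Gpnmb in fibroblast-like cells, whereas the highest type for Lpl differs between pools.

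To follow the monocyte-to-macrophage sequence, Mo-Mac-like cells of at least 10000 reads (1007 of 1106) were gated on marker genes that are not members. Ly6c2 marks inflammatory monocytes. Pdcd1lg2 encodes PD-L2, which in the study marked the monocyte-derived macrophages of this lesion, early ones together with Ly6C and late ones with little of it. A cell without a Ly6c2 read at this depth may still express the gene, so the gates are not the sorted populations. Lyve1 marks resident-like macrophages, and C1qa (with no Lyve1 read) complement-producing macrophages. Ly6c2, Pdcd1lg2 and Lyve1 counted at 1 thinned read and C1qa at 3. The Ly6c2 alone gate held 134, 25, 19 and 8 cells in the 4 pools, the Pdcd1lg2 alone gate 52, 45, 15 and 15, the Lyve1 gate 21, 29, 26 and 14, and the C1qa without Lyve1 gate 68, 171, 36 and 25. The gate with reads of both Ly6c2 and Pdcd1lg2 held 41, 5, 12 and 5 cells. A last gate, of cells that passed none of the 4 markers, held 87, 127, 11 and 16 cells. Ly6c2 and Pdcd1lg2 reads came before the other markers, so the alone gates can hold cells with Lyve1 or C1qa reads. In WT day 3, 24 Mo-Mac-like cells had a Lyve1 read after thinning, against 21 in the Lyve1 gate. The Ccr2-/- sums thus rested on 5 to 36 cells per gate.

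Fabp5 separated the gates most. In Pdcd1lg2 alone cells it was at 2285, 1646, 1536 and 5738 CPM in the 4 pools, and in Lyve1 cells at 161.2, 234.4, 51.9 and 35.7 CPM. All 4 pools were lower in the Lyve1 gate. The log2 difference was -4.24 ± 0.67 (SE, n = 4 pools, edgeR quasi-likelihood, adjusted p = 0.00289). Fabp5 was the 1 member called of 9 tested in this comparison, in which 1.43% of 12409 genes were called. Without the WT day 3 pool the adjusted p was 0.121, and over all alternatives it ran from 5.2e-97 to 0.121. Keratinocyte markers, 8 in number, summed to 2.99 to 87.0 CPM in Pdcd1lg2 alone cells and to 8.29 to 27.8 CPM in Lyve1 cells, and their part in the Fabp5 difference was not tested.

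Apoe and Abca1 ran the other way without passing the test. Apoe stood at 5778, 10254, 1554 and 2639 CPM in Lyve1 cells against 924.0, 4278, 1069 and 267.5 in Pdcd1lg2 alone cells, higher in 4 of 4 pools, with a log2 difference of 1.80 ± 0.51 (adjusted p = 0.0855, edgeR). Abca1 stood at 360.9, 437.9, 211.3 and 482.8 CPM against 50.1, 357.8, 26.6 and 71.9, also higher in 4 of 4 pools, with a log2 difference of 2.45 ± 0.72 (adjusted p = 0.0973, edgeR). DESeq2 called both, together with Fabp5. The WT day 5 pool had the smallest Abca1 difference of the 4.

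In C1qa without Lyve1 cells the same order was seen against Pdcd1lg2 alone cells. Apoe was at 6616, 9644, 1443 and 3656 CPM and Abca1 at 380.2, 527.9, 213.2 and 393.1 CPM, higher in 4 of 4 pools each. The log2 difference was 1.94 ± 0.52 for Apoe (edgeR adjusted p = 0.172), 2.36 ± 0.72 for Abca1 (adjusted p = 0.265) and -2.298 ± 0.60 for Fabp5 (adjusted p = 0.166). Trem2 was also higher in 4 of 4 pools, at 157.7, 300.4, 179.0 and 209.3 CPM against 87.6, 284.3, 74.8 and 116.8, with a log2 difference of 0.84 ± 0.60 (edgeR adjusted p = 0.904). edgeR called 0 of the 9 members, against 0.0242% of all genes, with 911 genes and 3 members at an unadjusted p under 0.05. DESeq2 called Apoe and Fabp5. C1qa without Lyve1 cells also carried more fibroblast reads than Pdcd1lg2 alone cells, 1150 to 3706 CPM of 9 fibroblast markers against 727 to 1056, and their part in these differences was not tested.

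The step from Ly6c2 alone to Pdcd1lg2 alone gave no call among the members. The Pdcd1lg2 alone gate need not hold the late macrophages of the study, so the step does not stand for the one to them. edgeR called 0 of 9 against 0.121% of all genes, with 731 genes and 1 member at an unadjusted p under 0.05, and DESeq2 called 0 members. That member was Lpl, with a log2 difference of 2.296 ± 0.76 (edgeR adjusted p = 0.673). Lpl was at 84.1, 511.4, 78.7 and 635.8 CPM in Pdcd1lg2 alone cells, with 99.4% of the reads in 1 cell in Ccr2-/- day 5, and the sign turned when each marker had to have 3 reads (-0.47). Cells with reads of both Ly6c2 and Pdcd1lg2 likewise gave 0 of 9 calls against Ly6c2 alone, against 0.00806% of all genes, with 944 genes and 0 members at an unadjusted p under 0.05 and 0 members by DESeq2. The genotype difference of the step from Ly6c2 alone to Pdcd1lg2 alone was called for 0 of 9 members, against 0% of 13246 genes, with 750 genes and 1 member, Spp1, at an unadjusted p under 0.05. DESeq2 called 0 members there. The Ccr2-/- sums behind that test held 8 to 19 cells per gate.

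**Figure D3:**
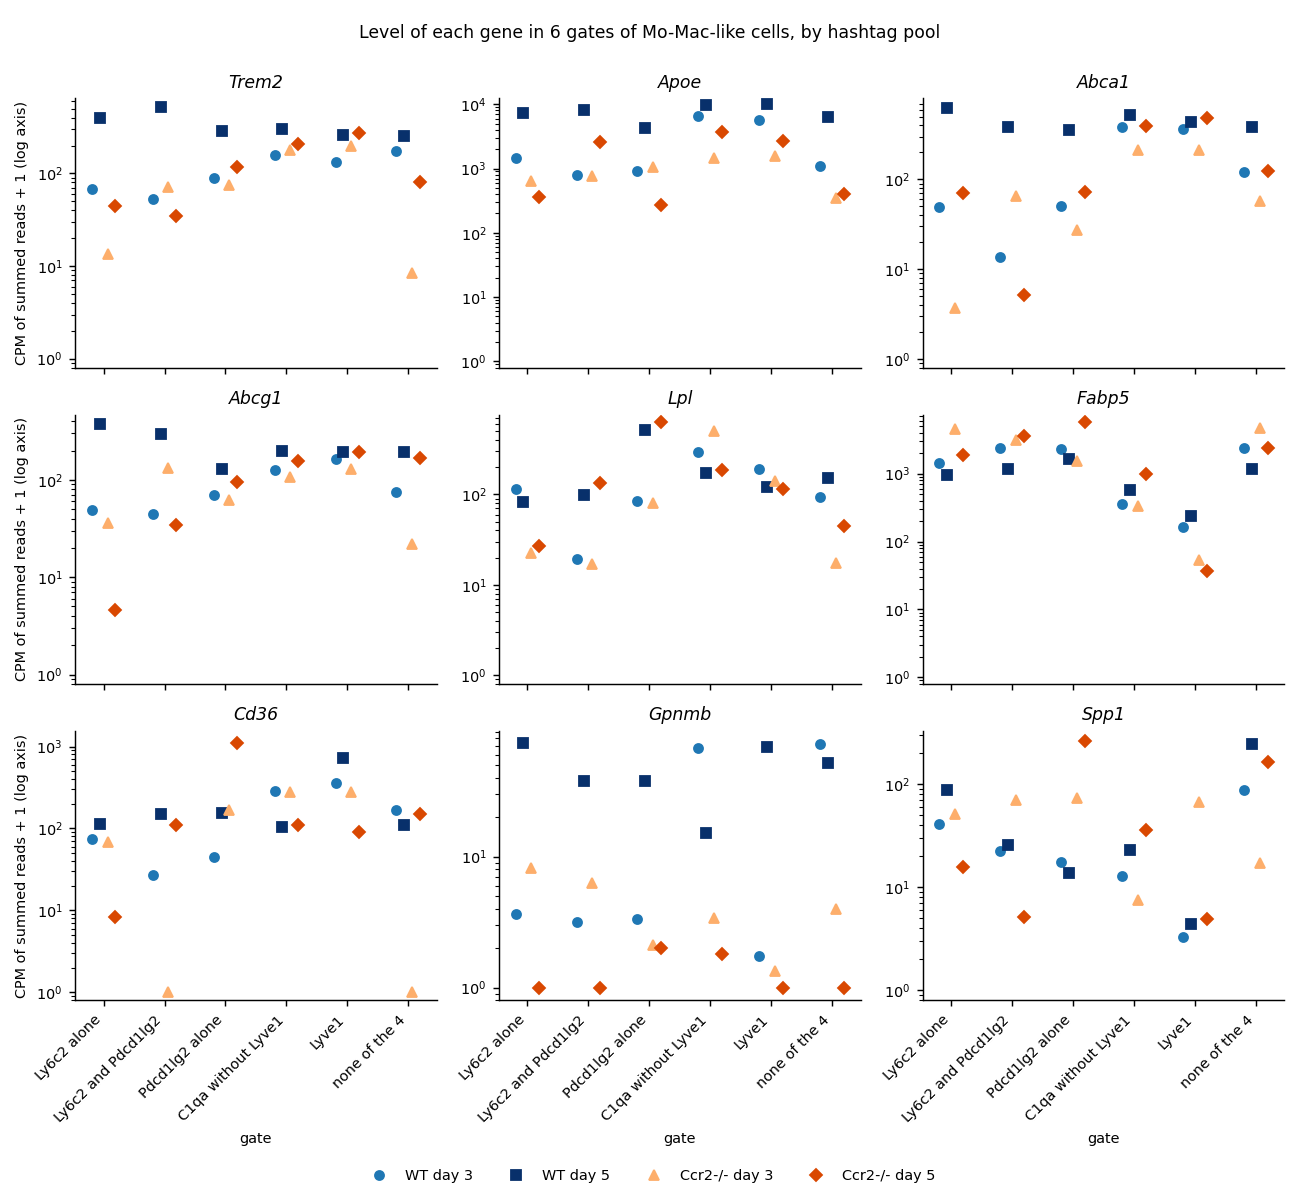
Each panel gives the CPM of summed reads plus 1 (log axis) of a gene in 6 gates of Mo-Mac-like cells, with 1 point per hashtag pool. Fabp5 lies lowest in the Lyve1 gate in every pool (35.7 to 234.4 CPM) and Apoe is higher in both the C1qa and Lyve1 gates than in the Pdcd1lg2 alone gate of the same pool.

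Within a pool, cells read for Apoe also tended to be read for Abca1. The Spearman correlation of thinned reads over Mo-Mac-like cells was 0.42, 0.19, 0.27 and 0.30 in the 4 pools, as a description over cells that share a library. For Apoe and Fabp5 it was -0.36, -0.21, -0.38 and -0.40. Cells with reads of at least 6 of the 9 members were 18 of 403 (4.47%), 78 of 402 (19.4%), 12 of 119 (10.1%) and 10 of 83 (12.05%).

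Only a small part of the Mo-Mac-like cells had a Gpnmb read at the common depth. It was found in 11 of 403 and 21 of 402 WT cells on days 3 and 5 (2.73%, exact 95% interval 1.37 to 4.83, and 5.22%, 3.26 to 7.87) and in 3 of 119 and 0 of 83 Ccr2-/- cells (2.52%, 0.523 to 7.19, and 0%, with an exact upper limit of 4.35% and a limit of 3.61% at 3 counts). In T cell-like cells thinned to the same depth the counts were 0 of 52, 0 of 18, 1 of 70 (1.43%) and 0 of 60. These counts allowed T cell-like shares of up to 6.85, 18.5, 7.70 and 5.96% (exact 95% upper limits), so a share above the background was not detectable at this depth in any of the 4 pools. Before thinning, the shares of Mo-Mac-like cells were 7.40, 11.1, 8.89 and 3.23%, against 4.62, 4.76, 2.27 and 1.32% of T cell-like cells. By summed reads, Mo-Mac-like cells were at 25.9, 34.8, 2.34 and 0.419 CPM and T cell-like cells at 3.78, 2.23, 2.25 and 0.655 CPM. The T cell-like levels of WT rest on 5 reads on day 3 and 1 read on day 5.

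Gpnmb-positive cells of the 2 WT pools were set against the Gpnmb-negative cells. The fit held 6 sums, fewer than the 8 planned, with 1 residual degree of freedom. There were 4 negative and 2 positive sums, since Ccr2-/- day 3 had 3 positive cells and Ccr2-/- day 5 none. Only the 2 WT pools held both classes, so the p-values below rest on a spread estimated over all genes, not on replicate pools. Among the 8 other members 4 were higher in positive cells, Cd36, Fabp5, Spp1 and Trem2, in a comparison where 0.358% of 16751 genes were called higher. Cd36 was at 722.9 against 110.9 CPM in WT day 3 and 763.6 against 107.7 in WT day 5 (log2 difference 2.80 ± 0.31, edgeR adjusted p = 1.79e-16). Fabp5 was at 2232 against 1631 CPM and 2574 against 762.9 CPM (1.14 ± 0.22, adjusted p = 0.00016, edgeR). Trem2 was at 297.7 against 100.4 and 456.0 against 278.0 CPM (1.17 ± 0.32, adjusted p = 0.0465, edgeR).

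Spp1 showed the limits of that comparison. It was at 769.8 against 27.2 CPM in WT day 5 but at 18.04 against 38.1 CPM in WT day 3, so that its call (log2 difference 2.21 ± 0.53, edgeR adjusted p = 0.0082) rests on WT day 5, where 1 cell held 61.8% of the reads of the positive cells. Without the cell with the most reads of the gene, Fabp5 in WT day 3 was at 1324 CPM, below the negative cells, Trem2 there was at 163.6 CPM, and Cd36 was at 559.3 and 424.9 CPM in the pair of pools. DESeq2 called 1 of the 4 genes, Cd36, and without the pool as a block edgeR called none. Fibroblast reads moved with the positive cells: Col1a1 was at 667.5 against 341.4 CPM on day 3 and 731.7 against 321.3 CPM on day 5, and Pdgfra was read in 18.2 against 8.42% and 19.0 against 7.09% of cells. Their part in the result was not tested.

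The 4 members that did not pass in Gpnmb-positive cells were Apoe, Abca1, Abcg1 and Lpl. Apoe was at 3624 against 2201 and 9103 against 7757 CPM (0.51 ± 0.19, edgeR adjusted p = 0.345). Abcg1 was at 15.5 against 75.8 and 198.7 against 195.1 CPM (-0.93 ± 0.43, edgeR adjusted p = 0.711). Lpl was higher in both pools, with 70.3 to 79.3% of the positive reads in 1 cell. Related lipid genes were also counted. Of 12 genes of the lipid-associated macrophage signature 5 were higher, Cd9 (log2 difference 2.39), Ctsl (2.28) and Ctsd (2.12) the most, and their median was 1.45 against -0.32 over all genes. The storage and fatty acid list had 2 of 13 higher, the lipid droplet coat gene Plin2 (2.0995) and the lysosomal lipase Lipa (1.79), and the uptake receptors had 1 of 7, the scavenger receptor Msr1 (1.17), where 0.358% of all genes were called higher. DESeq2 called 4 of the 12 and 2 of the 13, and none of the 7, and without the pool block edgeR called Plin2 alone among these 3 lists. For the 8 genes of the TREM2 complex, the 11 of LXR and sterol efflux and the 10 binding partners of secreted members the count was 0. In the comparison of Lyve1 with Pdcd1lg2 alone cells, where 1.43% of all genes were called, 2 related genes were called, both lower, Lgals3 (-1.58, edgeR adjusted p = 0.0051), which encodes galectin-3, and Sdc4 (-1.71, edgeR adjusted p = 0.0438), a syndecan. Neither was called without the WT day 3 or without the Ccr2-/- day 5 pool.

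**Figure D4:**
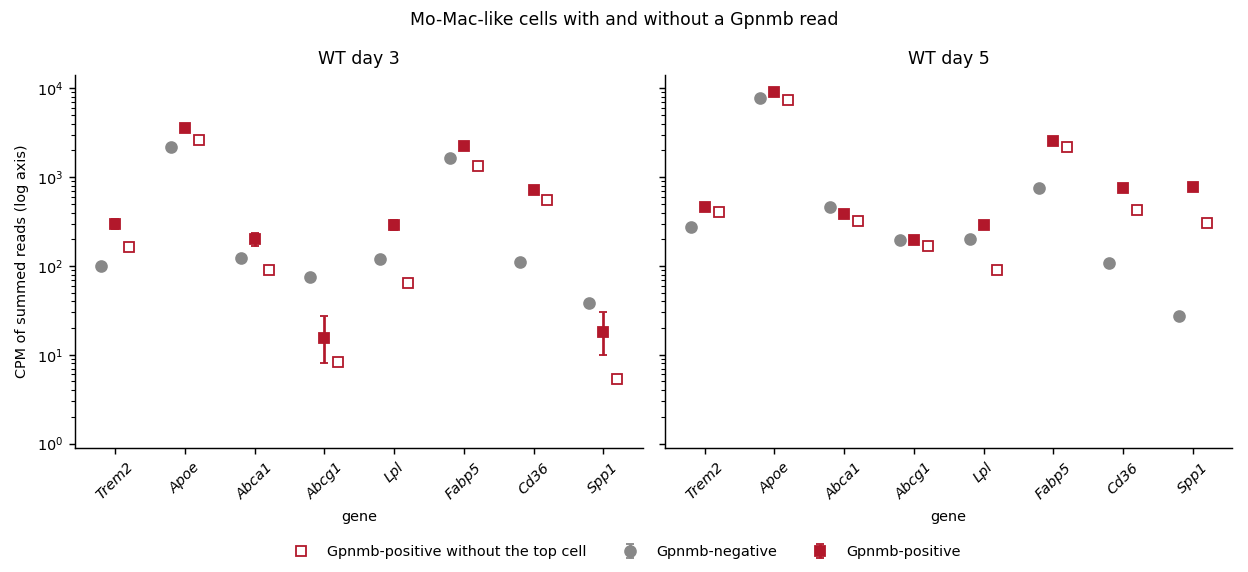
CPM of summed reads (log axis) of 8 members in Mo-Mac-like cells without (grey) and with (red) a Gpnmb read, in WT day 3 and WT day 5, with exact Poisson 95% intervals and, as open squares, positive cells without the cell that held most reads of the gene. Cd36 is higher in the positive cells of both pools also without that cell (559.3 and 424.9 CPM), whereas Fabp5 in WT day 3 is not (1324 CPM).

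Between genotypes, no member passed the test in the macrophages. The edgeR fit called 0 of 9, against 0.0124% of 16191 genes, with 2473 genes and 3 members at an unadjusted p under 0.05. Gpnmb had the largest difference, 25.9 and 34.8 CPM in WT against 2.34 and 0.419 CPM in Ccr2-/- (log2 difference -4.44 ± 0.68, edgeR adjusted p = 0.0913). The Ccr2-/- levels rest on 25 and 3 reads and lay near those of T cell-like cells in these pools (2.25 and 0.655 CPM). The size of the difference is therefore uncertain. In WT day 3 a single cell held 45.4% of the Gpnmb reads, without which the level was 14.2 CPM, and the shares of cells with a read on day 3 were alike, 2.73% in WT and 2.52% in Ccr2-/-. Apoe was lower in Ccr2-/- on both days, with 1202 against 2260 CPM on day 3 and 2181 against 7852 on day 5 (-1.34 ± 0.24, edgeR adjusted p = 0.117). Cd36 was higher in Ccr2-/- on both days (0.69 ± 0.17, edgeR adjusted p = 0.172), but without the cell with the most reads of each pool the day 5 direction turned, at 105.4 CPM in Ccr2-/- against 130.3 in WT, while day 3 was at 161.6 against 120.2 CPM. DESeq2 called Gpnmb and Apoe. The median of the 9 log2 differences was 0.00, against -0.03 over all genes. The genotypes differed in the gates they held. The Lyve1 gate held 21 of 403 and 29 of 402 WT cells but 26 of 119 and 14 of 83 Ccr2-/- cells. In the finer clustering (resolution 2), a Mo-Mac-like cluster led by Trem2 and Rnase2a held 52, 193, 2 and 4 cells in the 4 pools. The part of this cell make-up in the differences between genotypes was not tested.

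Between days, 7 of the 9 members were higher on day 5 in Mo-Mac-like cells, with a median log2 difference of 0.93 against -0.02 over all genes. The edgeR fit called 0 of 9, against 0% of 16191 genes, with 1296 genes and 5 members at an unadjusted p under 0.05. The 5 were Abca1 (1.45 ± 0.24), Apoe (1.32 ± 0.24), Abcg1 (1.04 ± 0.24), Spp1 (1.02 ± 0.22) and Trem2 (0.93 ± 0.28), each with an edgeR adjusted p of 0.524. For Spp1, single cells held 43.0 and 41.3% of the day 5 reads in WT and Ccr2-/-, and without that cell WT day 5 was at 47.8 in place of 83.6 CPM, and the share of WT cells with a read was 9.9% on day 3 and 8.0% on day 5. DESeq2 called Abca1, Apoe and Abcg1. The clusters that made up the Mo-Mac-like class differed between the days, with 266 of 446 cells in cluster 6 in WT day 3 and 385 of 432 in cluster 2 in WT day 5.

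Within clusters, Apoe and Abca1 were higher in WT day 5 than in WT day 3, whereas Fabp5 was nearly level. In cluster 2 Apoe was at 4813 CPM on day 3 and 8133 CPM on day 5, and in cluster 6 at 910 and 5280 CPM. Abca1 was at 279.9 and 467.2 CPM in cluster 2 and at 46.2 and 365.3 CPM in cluster 6. Fabp5, lower in WT day 5 over all Mo-Mac-like cells, was at 783.7 and 764.1 CPM in cluster 2 and at 2092 and 2148 CPM in cluster 6. In the Ccr2-/- pools Apoe was at 1560 and 2962 CPM in cluster 2 and at 547 and 743 CPM in cluster 6.

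In fibroblast-like cells, where Gpnmb and Lpl had most of their reads, both were lower in Ccr2-/- without passing the test. edgeR called 0 of 9 between genotypes, against 0% of 20049 genes, with 4199 genes and 5 members at an unadjusted p under 0.05. Gpnmb was lower in both Ccr2-/- pools, at 46.4 and 45.6 CPM against 106.1 and 137.9 in WT (log2 difference -1.38 ± 0.15, edgeR adjusted p = 0.0948). Lpl was lower too (-0.56 ± 0.083, edgeR adjusted p = 0.0958), but its day 5 Ccr2-/- pool (522.1 CPM) exceeded the day 3 WT pool (502.3 CPM). DESeq2 called Gpnmb, Lpl, Abca1 and Cd36. The genotypes differed in fibroblast clusters: cluster 1 held 182 of 321 and 192 of 260 WT cells but 216 of 690 and 143 of 547 Ccr2-/- cells, while the inflammatory cluster 3, led by Hp, Lcn2 and Saa3, held 72 and 32 WT cells against 262 and 194.

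Gpnmb varied among the fibroblast-like clusters in every pool. It was at 322.9, 271.8, 256.1 and 98.6 CPM in cluster 18, which held 72 cells led by Coch and Gldn. It was at 187.4, 221.2, 111.1 and 141.4 CPM in cluster 1, at 72.3, 70.0, 46.8 and 47.6 CPM in cluster 3 and at 21.2, 8.33, 14.2 and 18.3 CPM in the cycling cluster 4. Within cluster 1 and within cluster 3 Gpnmb was lower in value in Ccr2-/- than in WT on the same day, with a smaller gap than over all fibroblast-like cells. The part of the cluster sizes in the difference over all fibroblast-like cells was not tested.

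**Figure D5:**
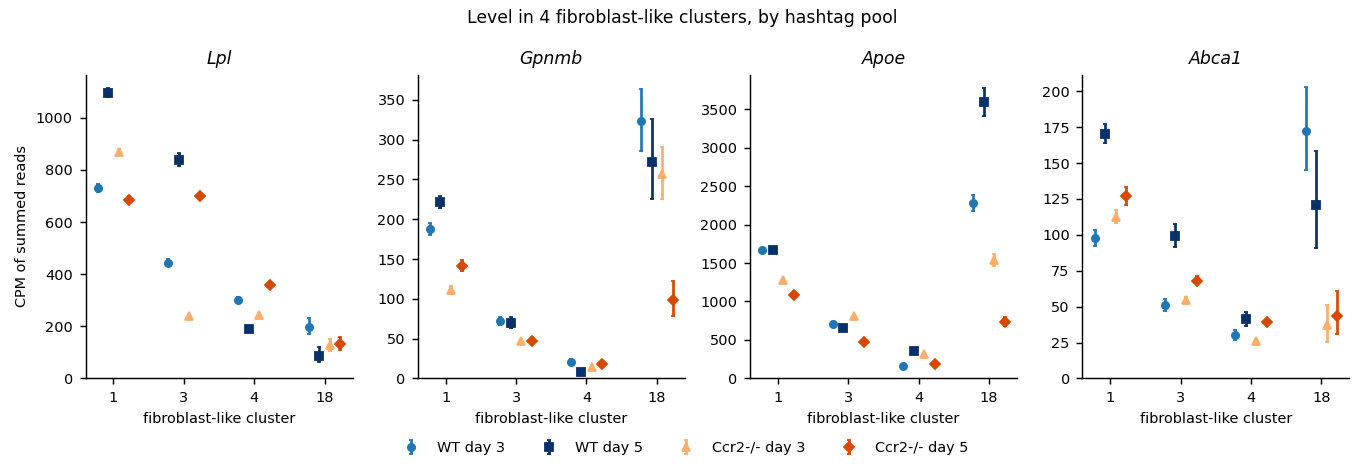
CPM of summed reads of Lpl, Gpnmb, Apoe and Abca1 in 4 fibroblast-like clusters, with 1 point per hashtag pool and exact Poisson 95% intervals. Gpnmb lies higher in clusters 1 and 18 than in cluster 3 and is lowest in the cycling cluster 4 (8.33 to 21.2 CPM) in every pool.

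Between days in fibroblast-like cells, edgeR called 0 of 9 members against 0% of 20049 genes, with 1332 genes and 4 members at an unadjusted p under 0.05. Fabp5 was at 42.7 and 132.3 CPM in WT on days 3 and 5 and at 50.0 and 113.6 CPM in Ccr2-/-, higher on day 5 in both genotypes (log2 difference 1.39 ± 0.16, edgeR adjusted p = 0.722). Lpl was also higher on day 5 in both genotypes (0.62 ± 0.083, edgeR adjusted p = 0.722). DESeq2 called Fabp5, Lpl and Abcg1.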

How the data were processed

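The deposited counts are reads per gene and cell barcode of a cDNA library (TAS-Seq, in BD Rhapsody microwells) and reads per hashtag antibody and barcode of a hashtag library. The authors trimmed the reads with Cutadapt, aligned them with Bowtie2 to Ensembl mouse RNA (GRCm38), took the knee-plot inflection as the limit for barcodes and corrected the background. PCR copies are counted as separate reads. Of the hashtag columns, 9 were not used here. Gene positions come from GENCODE M21, which is not the annotation the authors aligned to.

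Both libraries shared 8696 of 8953 barcodes. A barcode went to the hashtag pool whose scaled count was at least 3 times the next, with at least 10 hashtag reads, at most 20% mitochondrial reads and at least 200 genes, which left 7118 cells. The 570 barcodes with several hashtags were removed and no doublet caller was run, so doublets within a pool remain. Cells were clustered with scanpy 1.11.5 and leidenalg 0.10.2 (2000 variable genes, 30 components, 20 neighbours, resolution 1) without the members, Ccr2 and the related lists, and clusters were named from marker lists. Cells under 10000 reads were left out of shares and gates. The members and lists were chosen with earlier results of these data known, and Apoe, Abca1, Abcg1 and Trem2 were singled out by the study on these same cells.

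Raw counts were summed per pool and gate (at least 5 cells) and tested with the quasi-likelihood test of edgeR 4.0.16 (TMM, filterByExpr, pool as block, or day and genotype as terms), with Benjamini-Hochberg adjustment over all genes and a threshold of 0.05. Fits over 4 pools have 1 residual degree of freedom. All 9 members are named, with at most the 3 genes of largest change per related list and comparison. Intervals are exact (Poisson or binomial, 95%). The alternatives were DESeq2 1.42.0, library sizes only, no filter on low counts, a hashtag ratio of 10, resolution 2, cells over 100000 reads left out, gates at 3 reads, at least 10 cells per sum, no pool block, each pool left out, the mean over cells and, added after seeing the data, the top cell left out and the related lists under the settings used for the members. On simulated data for the gates (12079 genes) the test recovered 4 of 100 genes changed by a log2 of 1 and 23 of 100 changed by 2, and for the genotype comparison in Mo-Mac-like cells (15645 genes) 18 and 57 of 100.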

Additional observations from a re-analysis of the deposited data

Results flagged for a closer look

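For several members the step from day 3 to day 5 had opposite signs in WT and Ccr2-/-. Each sign rests on 1 pool per genotype and day, and the difference between the genotypes was not tested. Values are log2 ratios of day 5 over day 3 of CPM with a pseudocount of 1. In Mo-Mac-like cells Lpl was 0.72 in WT and -0.12 in Ccr2-/-, Fabp5 was -0.86 and 0.38, and Gpnmb was 0.41 and -1.23. The Gpnmb value in Ccr2-/- compares 25 reads on day 3 with 3 reads on day 5, which is the floor. Those levels, 2.34 and 0.419 CPM, lay near the 2.25 and 0.655 CPM of T cell-like cells in the same pools. In fibroblast-like cells Apoe was 0.30 and -0.74, Cd36 was -0.42 and 0.75, and Gpnmb was 0.38 and -0.025. The counting intervals of the days were apart in both genotypes for Fabp5 and Gpnmb in Mo-Mac-like cells and for Apoe in fibroblast-like cells.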

How the results depend on the processing

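Of 100 counts of members called that were recomputed under an alternative, 73 stayed within 1.5 times the main count, 20 were higher and 7 lower. With 1 pool per genotype and day, the self-test recovered few changes of a log2 of 1, so a count of 0 says little about small differences. DESeq2 called 2 members in C1qa without Lyve1 against Pdcd1lg2 alone cells, 3 in Lyve1 against Pdcd1lg2 alone cells, 1 in Gpnmb-positive cells (4 in edgeR), 2 between genotypes and 3 between days in Mo-Mac-like cells, and 4 between genotypes and 3 between days in fibroblast-like cells. Without the filter on low counts the counts were 2 for Pdcd1lg2 alone and 1 for both markers against Ly6c2 alone, 3 for C1qa without Lyve1, 4 for Lyve1, 2 for the genotype difference of the step, 2 and 5 for genotype and day in Mo-Mac-like cells and 2 for genotype in fibroblast-like cells, where adjusted p-values became extremely small. Without cells over 100000 reads they were 1 for C1qa without Lyve1, 2 for Lyve1 and 2 for Gpnmb-positive cells, and with gates at 3 reads 3, 3 and 2. With at least 10 cells per sum, 2 members were called for Lyve1. At resolution 2 there were 2 for Gpnmb-positive cells and 1 between genotypes in Mo-Mac-like cells.

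With any 1 pool left out, the counts for Lyve1 ran from 0 to 1, 0 without WT day 3, and those for Gpnmb-positive cells from 1, without Ccr2-/- day 3, to 4, with no value without either WT pool. Without the pool block, Gpnmb-positive cells gave 0. Gates were paired within pools by the pool block, whereas between genotypes and days the labels give no replicate numbers that could pair the pools. Fits over 4 pools had no residual degree of freedom once 1 pool was left out. The sign turned for Lpl in Pdcd1lg2 alone against Ly6c2 alone cells (-0.47) and for Spp1 in the genotype difference of the step (-1.86), both with gates at 3 reads. Of 52 recomputed levels 4 moved by more than the spread over pools: Cd36 in blood endothelial-like cells from 1107 to 1840 CPM (mean over cells) and 1580 CPM (cells over 100000 reads left out), and under the latter Lpl and Gpnmb in fibroblast-like cells from 476.4 to 761 and from 63.2 to 139 CPM. The causes were not tested.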

Other observations

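Basophil-like cells also had Spp1 reads. Their level was 286.5 CPM in WT day 3 (27 cells), 498.0 in Ccr2-/- day 3 (66 cells) and 99.1 in Ccr2-/- day 5 (62 cells), with a read in 13.0, 21.8 and 10.2% of cells after thinning. One basophil-like cell held 64.2, 29.9 and 41.5% of these reads. WT day 5 had 2 basophil-like cells, too few for a level. The genes whose levels ran most like that of Spp1 over the 57 sums were Gm16505 (r = 0.734) and Ptgs2 (0.661), the latter the inducible cyclooxygenase.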
